A study of Mus musculus with 120 samples.

Results

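The Schlafen genes of the mouse were followed here in the immunological niche, a porous poly(e-caprolactone) scaffold placed under the skin that fills with immune and stromal cells and can be taken out as a biopsy. The members were Slfn1, Slfn2, Slfn3, Slfn4, Slfn5, Slfn8 and Slfn9, taken by symbol from both count tables, and they are 7 of the 55487 genes that both tables list. They were chosen by their measured values in the NOD to NOR contrast of batch 1 and in the contrasts of 6 weeks with later biopsies of each group, which were known when the family was put forward. For those contrasts, levels and fitted differences are therefore given as descriptions, with no p value printed for any member. Which members were called at an adjusted p under 0.05 is stated, and this too is a description. Adjusted p values are printed for the comparison of the time change between batches, which used the same samples. All 7 passed the filter on low counts in each comparison below.

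The study asked whether scaffold biopsies show who among NOD mice will become diabetic, and it sequenced total RNA from 120 scaffolds. NOD/ShiLtJ mice, which develop autoimmune diabetes, gave 58 samples from 10 mice that became hyperglycemic (progressors) and 39 samples from mice that did not (nonprogressors, 11 numbered mice). NOR/LtJ mice, a related strain used as the nondiabetic control, gave 23 samples from 5 mice. No transgene is given for any group. All mice had scaffolds and, per the study's methods, the analgesic carprofen and isoflurane anesthesia at each operation. Per the study's methods the mice were implanted when young and each scaffold taken out was replaced by a new one, so the samples of a mouse are separate scaffolds. Age, the number of earlier operations and time since implantation cannot be told apart in these comparisons.

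NOR and nonprogressor samples came from mice aged 6, 10, 14, 18 or 22 weeks, and progressor samples at 6 weeks of age, at 7, 5, 3 and 1 weeks before onset of hyperglycemia and at onset. A further 6 nonprogressor samples carry a day label in place of an age, with mouse numbers 1 and 2, and they were kept out of the tests. Sequencing was done in 2 batches, with 74 samples in batch 1 and 46 in batch 2. NOR mice were sequenced in batch 1 only, batch 2 nonprogressors gave 6 and 14 weeks only, and the samples 7 weeks before onset were all in batch 2, those of progressor mice 1 to 4 included, whose other samples were in batch 1. Total counts per sample ran from 4722396 to 56185434. The 11 macrophage markers summed to between 3741 and 10210 CPM (counts relative to the TMM-scaled library size) in the age- and time-labelled samples and the 5 fibroblast markers to between 4576 and 54560, with none of either list at 0 in any group. The 18-week sample of NOR mouse 5 stood apart in its scaling factor, 0.115, the lowest of the 120, and held 0 counts of Slfn3 and of Slfn9. A count of 0 there allows up to 3.03 CPM, a floor of 3 counts that covers counting error only.

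The family takes its name from the German verb for sleeping, because its first members were found as genes that slow the growth of thymocytes. Schlafen genes are induced by type I interferon and are expressed in T cells and myeloid cells. Slfn2 keeps resting T cells and monocytes quiescent, and its loss in the elektra mouse leaves lymphocytes unable to stay at rest. Slfn4 marks a set of interferon-exposed myeloid cells, and the long members carry a helicase-like part that the short ones lack.

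All 7 members lie on chromosome 11 within 263.8 kb (GRCm38, from 82951349 to 83215154). The short members are Slfn1, with 337 codons at 83116849 to 83122670 on the plus strand, and Slfn2, with 378 codons at 83065112 to 83070678 on the plus strand. The intermediate members are neighbours on the plus strand. Slfn4 has 602 codons and lies at 83175186 to 83190216, and Slfn3 has 640 codons and lies at 83191330 to 83215154. Of the long members, Slfn5 has 884 codons at 82951349 to 82964840 on the plus strand. Slfn8 at 83002158 to 83020810 and Slfn9 at 82978390 to 82991830 are both on the minus strand and have 910 codons each.

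**Figure D1:**
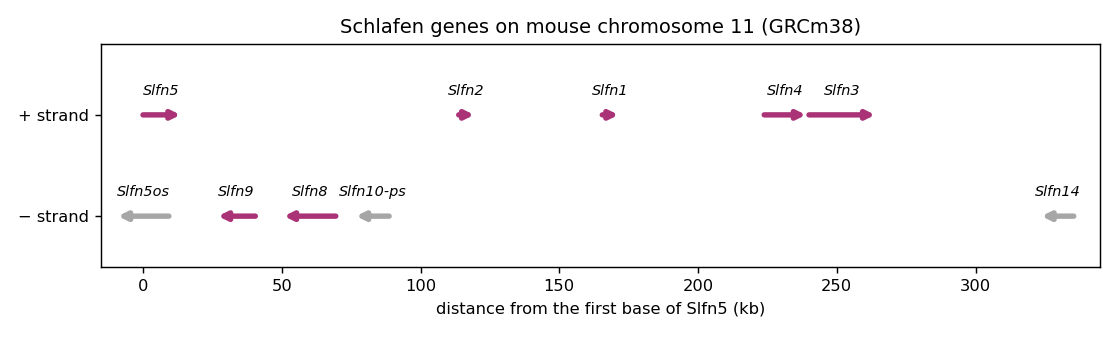
The map draws the Schlafen genes on chromosome 11 by strand, with distance from the first base of Slfn5 in kb on the horizontal axis and an arrow for each gene. Members are in colour and Slfn5os, Slfn10-ps and Slfn14, which are not members, in grey. All 7 members lie within 263.8 kb.

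Slfn8 with Slfn9 and Slfn3 with Slfn4 are pairs of close copies. The coding sequences of Slfn8 and Slfn9 matched at 92.7% of aligned bases and those of Slfn3 and Slfn4 at 92.3%, while the other pairs matched at 61.2% to 76.9%. Between 0.606% (Slfn1) and 16% (Slfn3) of the 50-base words of a member's exons also occur in another gene. Slfn8 shared 389 such words with Slfn9 and 423 with the pseudogene Slfn10-ps, and Slfn3 shared 252 with Slfn4. Reads from these stretches are divided between genes by the counting model, so the split within Slfn8 and Slfn9 and within Slfn3 and Slfn4 is uncertain. Slfn5 overlaps the antisense gene Slfn5os, with which it shares 467 words, and whether strand was used in counting is not given in the sources used here. Slfn5os held 1377 counts in all and Slfn5 held 726951.

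The promoters of Slfn8 and Slfn9 are shown because they are alike and hold a motif of the interferon-response type, Slfn5 because it holds the same motif, and Slfn4 and Slfn1 as windows without it. Each is the 250 bases before the RefSeq start on GRCm38.p6, read 5′ to 3′ on the strand of the gene. The coordinates are chr11:82991831-82992080 (minus) for Slfn9, chr11:83020811-83021060 (minus) for Slfn8, chr11:82951852-82952101 (plus) for Slfn5, chr11:83174936-83175185 (plus) for Slfn4 and chr11:83116570-83116819 (plus) for Slfn1. The RefSeq start of Slfn5 lies inside the gene as annotated in GENCODE. Capitals mark each match to a motif of GAAA, any 2 bases and GAAA again, searched on both strands, so that on the other strand it reads TTTC, any 2 bases and TTTC.
Slfn9: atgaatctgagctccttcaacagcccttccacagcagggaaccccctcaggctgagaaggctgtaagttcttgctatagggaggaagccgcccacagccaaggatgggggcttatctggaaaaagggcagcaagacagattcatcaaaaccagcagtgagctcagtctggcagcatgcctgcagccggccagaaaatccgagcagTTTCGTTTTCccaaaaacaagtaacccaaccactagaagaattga
Slfn8: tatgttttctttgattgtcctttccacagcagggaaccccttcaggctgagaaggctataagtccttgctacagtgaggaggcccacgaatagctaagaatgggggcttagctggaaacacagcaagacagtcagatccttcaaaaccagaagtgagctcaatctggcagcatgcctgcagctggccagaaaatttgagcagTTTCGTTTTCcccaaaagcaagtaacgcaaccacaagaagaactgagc
Slfn5: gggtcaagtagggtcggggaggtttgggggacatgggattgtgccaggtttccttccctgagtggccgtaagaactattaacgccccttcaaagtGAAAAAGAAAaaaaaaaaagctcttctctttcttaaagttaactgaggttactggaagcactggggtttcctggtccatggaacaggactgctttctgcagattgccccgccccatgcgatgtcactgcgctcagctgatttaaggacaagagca
Slfn4: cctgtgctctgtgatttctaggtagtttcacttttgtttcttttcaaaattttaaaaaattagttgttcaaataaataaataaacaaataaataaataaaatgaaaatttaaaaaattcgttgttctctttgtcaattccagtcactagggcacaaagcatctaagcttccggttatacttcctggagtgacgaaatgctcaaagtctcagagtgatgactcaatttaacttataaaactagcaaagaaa
Slfn1: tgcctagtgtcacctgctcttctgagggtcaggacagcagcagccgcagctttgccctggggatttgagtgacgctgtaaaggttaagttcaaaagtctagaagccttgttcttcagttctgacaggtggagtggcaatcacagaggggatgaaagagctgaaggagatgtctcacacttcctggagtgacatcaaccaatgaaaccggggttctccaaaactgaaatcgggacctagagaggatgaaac
The Slfn8 and Slfn9 windows were identical at 206 of 242 aligned bases (85.1%), and both hold the match TTTCGTTTTC, beginning 48 and 45 bases before the start. Slfn5 holds GAAAAAGAAA, beginning 155 bases before the start. The motif was found in 3 of the 7 members' windows (for Slfn8 also in its second RefSeq window) and in 978 of 32851 windows of the same length over all genes (2.98%). The windows of Slfn1, Slfn2, Slfn3 and Slfn4 do not hold these letters, which says nothing of other forms of the motif or of sites further away.

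Per kb of exon, Slfn2 and Slfn5 were the most abundant members in the niche and Slfn3 the least. The median level over the 120 samples was 35.3 CPM per kb for Slfn2, 25.5 for Slfn5, 5.64 for Slfn8, 3.20 for Slfn4, 1.90 for Slfn9, 1.17 for Slfn1 and 0.718 for Slfn3. The step from Slfn5 to Slfn8 held in 120 of 120 samples. The other neighbours in the order changed places in some samples: Slfn2 was above Slfn5 in 103 samples, Slfn8 above Slfn4 in 108, Slfn4 above Slfn9 in 97, Slfn9 above Slfn1 in 100 and Slfn1 above Slfn3 in 94. For Slfn8 over Slfn4, Slfn4 over Slfn9, Slfn9 over Slfn1 and Slfn1 over Slfn3, the medians differed by less than the larger of the SDs of the pair. In bulk RNA, fewer cells of a type and less RNA per cell cannot be told apart, and this holds for each difference below.

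**Figure D2:**
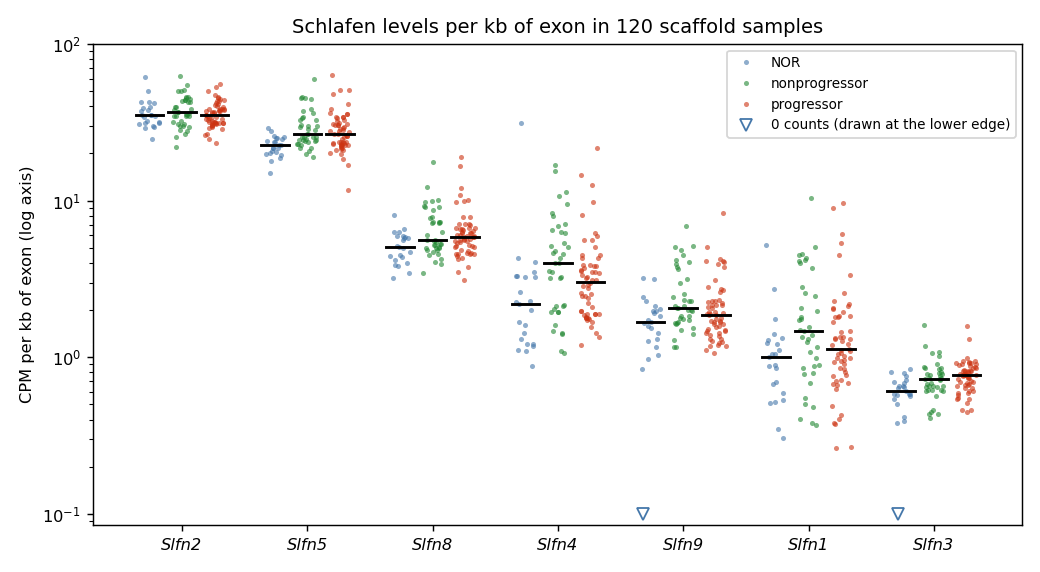
Each point is 1 sample, with CPM per kb of exon on a log axis, members on the horizontal axis and NOR, nonprogressor and progressor samples side by side. Bars mark group medians and open triangles at the lower edge the sample with 0 counts of Slfn9 and Slfn3. Slfn2 and Slfn5 lie above the other members, and Slfn4 and Slfn1 spread the most.

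Between strains the fitted difference, NOD minus NOR, was above 0 for all 7 members and 1 of them was called, with a median log2 difference of 0.27 over the members beside -0.0016 over all genes. This compared 9 NOD with 5 NOR mice of batch 1, with the samples of each mouse summed. Of the members, Slfn5 alone was called by edgeR at an adjusted p under 0.05, that is 1 of 7, where 8.98% of the 23387 genes tested were called and 3.87% were called higher in NOD. This contrast chose the members and the count is near the share over all genes, so nothing is read from it. The mouse means of all 7 members overlapped between strains. Over all genes 3.81% had mouse means that did not overlap.

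Slfn5 had mouse means of 141 to 210 CPM in NOD mice (median 168) and 131 to 158 CPM in NOR mice (median 139). Of the 9 NOD mice, 8 lay above every NOR mouse, and the fitted log2 difference was 0.27 ± 0.08 (SE). Slfn9 mouse means ran from 10.5 to 16.2 CPM in NOD and from 8.02 to 12.3 CPM in NOR mice, a log2 difference of 0.34 ± 0.12 (SE), with 6 of 9 NOD mice above every NOR mouse. Its close copy Slfn8 differed by 0.17 ± 0.10 (SE), also with 6 of 9 above. Slfn3 differed by 0.21 ± 0.09 (SE) and Slfn1 by 0.32 ± 0.20 (SE). Slfn2, the quiescence gene, had the smallest fitted difference of the members, 0.02 ± 0.07 (SE).

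Slfn4 differed by 0.31 ± 0.29 (SE), and this value rested on a single NOR biopsy. The mouse mean of NOR mouse 4 was 29.5 CPM and the other NOR mice had 8.05 to 10.6 CPM, against 9.21 to 23.3 CPM in NOD mice. Without the 18-week sample of NOR mouse 4, which had 123 CPM of Slfn4, the log2 difference was 0.91 ± 0.20 (SE) and 2 members, Slfn4 and Slfn5, were called. The call of Slfn5 was lost when any 1 of 8 of the 14 mice, among them 4 NOR mice, was left out, and no member was called when progressor mice alone were set against NOR.

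At 6 weeks of age alone, the fitted difference was above 0 for all 7 members and larger than over all ages. The log2 difference was 1.20 ± 0.41 (SE) for Slfn1, 0.68 ± 0.23 (SE) for Slfn4 and 0.50 ± 0.20 (SE) for Slfn9, and it ran from 0.16 to 0.46 for the others. By edgeR 0 of 7 members and 2.11% of all genes were called there, and nothing is read from that count, since the contrast chose the members.

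From 6 weeks of age to later biopsies, 6 of the 7 members were called lower in nonprogressors, 5 in progressors and 0 in NOR mice. In nonprogressors all 7 members had a lower fitted level at 10 to 22 weeks than at 6 weeks and all but Slfn2 were called, where 14.2% of the 21138 genes tested were called lower and 24.1% in either direction. In progressors all 7 had a lower fitted level over both batches together and all but Slfn2 and Slfn3 were called, against 18.5% of 21279 genes called lower and 36.5% in either direction. In NOR mice 4 of the 7 had a lower fitted level, 0 were called by edgeR and by DESeq2, and 0.0357% of 19628 genes were called by edgeR. These contrasts chose the members, so nothing is read from the counts. The median log2 difference of the members was -0.79 in nonprogressors, -0.45 in progressors and -0.04 in NOR, beside -0.03, 0.01 and 0.003 over all genes. The NOR values depended on the 18-week sample of mouse 4. Without it Slfn4 in NOR was at -0.61 ± 0.22 (SE), beside -0.14 ± 0.44 (SE) with it. Slfn1 and Slfn2 then turned below 0, to -0.10 and -0.04, Slfn3 stayed above 0 at 0.02, and no member was called.

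**Figure D3:**
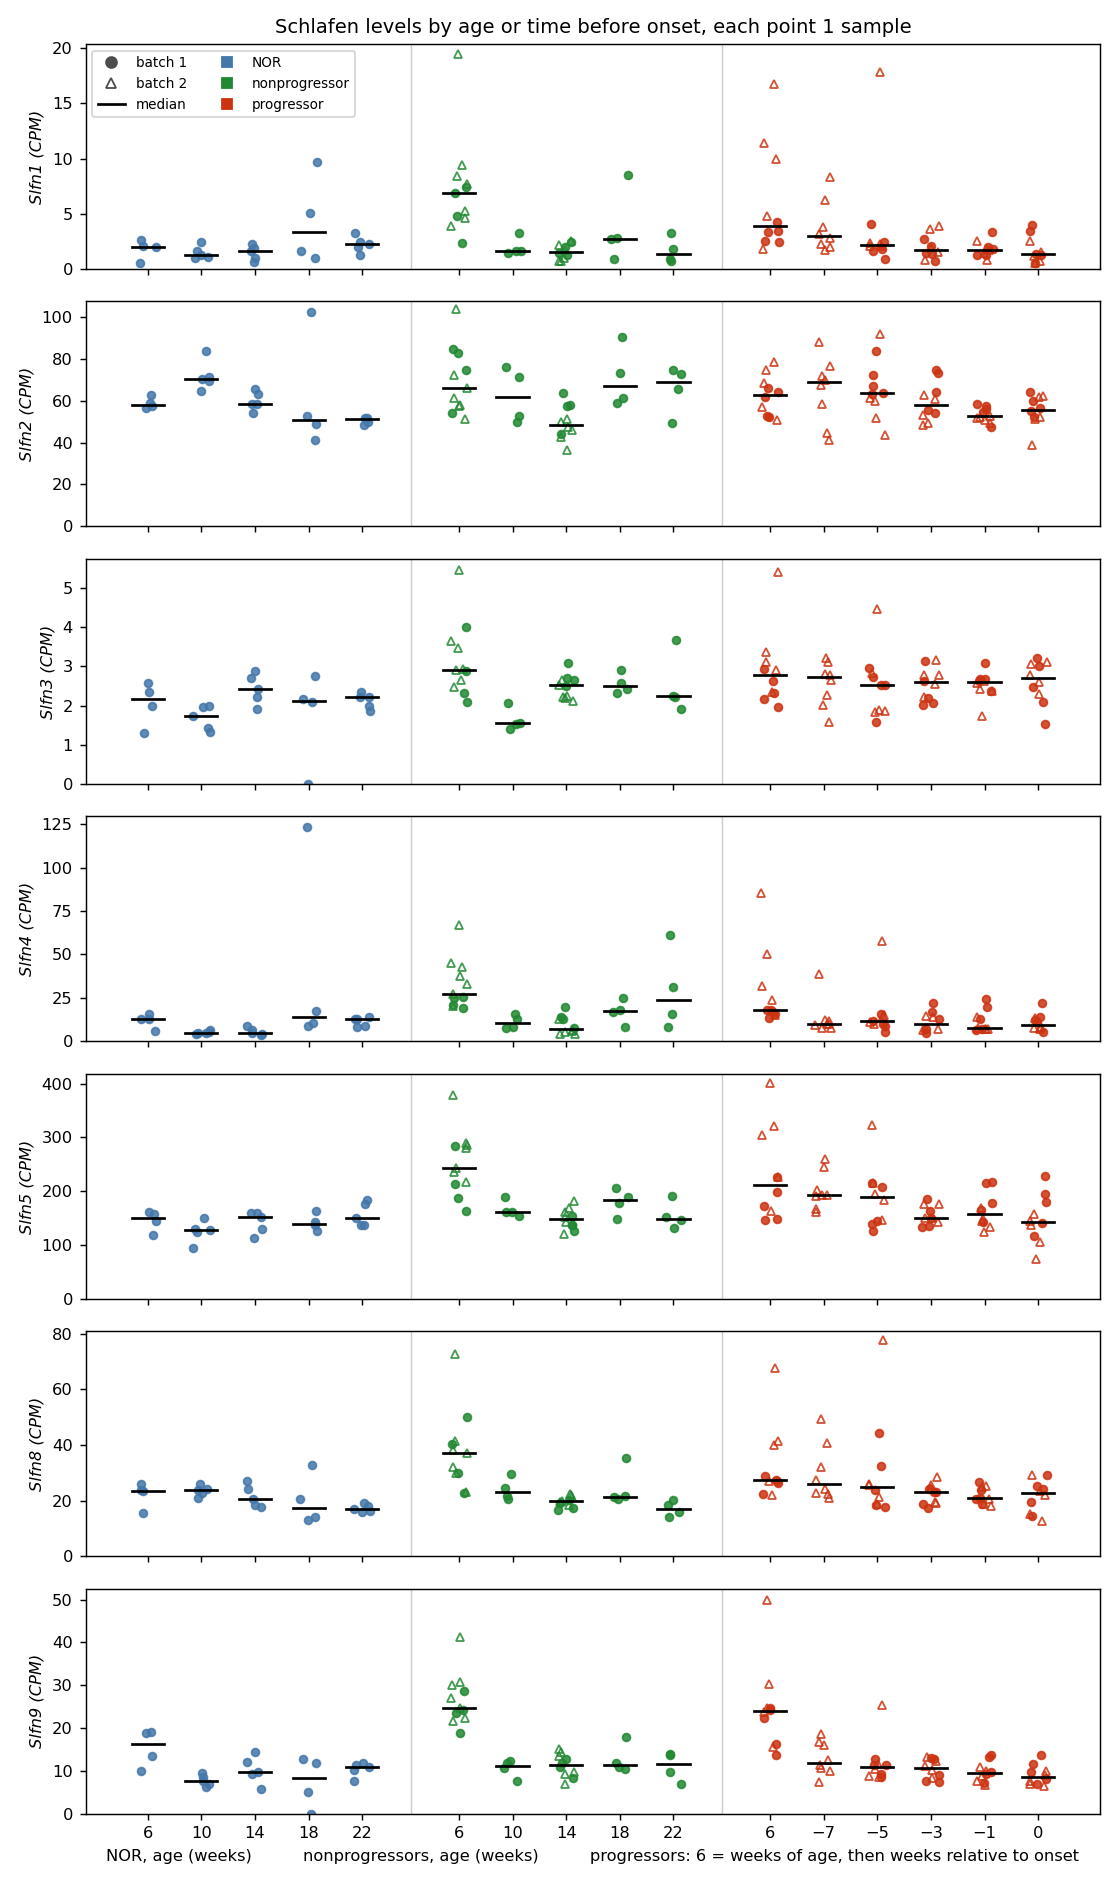
Each panel is 1 member, in CPM, with 1 point per sample, NOR and nonprogressor samples by age in weeks and progressor samples at 6 weeks of age and then by weeks relative to onset (0). Circles are batch 1, open triangles batch 2 and bars medians. Slfn9 at 6 weeks lies above every later nonprogressor sample, and a single 18-week NOR sample has 123 CPM of Slfn4.

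Slfn9, a long member, had the clearest separation by time. In nonprogressors it had 18.9 to 41.2 CPM at 6 weeks (11 samples, median 24.8) and 6.97 to 17.8 CPM later (22 samples), so that every later sample lay below every 6-week sample. Over all genes the later samples lay wholly below the 6-week samples for 0.0568%. The separation of Slfn9 held within batch 1, where it was seen for 0.516% of genes, and within batch 2, where it was seen for 5.12%. Within batch 2 it was also seen for Slfn1, Slfn2, Slfn4, Slfn5 and Slfn8. This contrast chose the members and the batches are parts of the same samples, so nothing is read from these shares. The log2 difference of Slfn9 was -1.17 ± 0.14 (SE). In progressors Slfn9 had 13.7 to 49.99 CPM at 6 weeks (10 samples) and 6.40 to 25.5 CPM later (48 samples), and 43 of the 48 lay below the lowest 6-week sample. It was lower later in 10 of 10 progressors and in 10 of 10 nonprogressors that had both, and the log2 difference in progressors was -1.21 ± 0.14 (SE).

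In NOR mice the later levels of Slfn9 overlapped those at 6 weeks, which were 18.9, 19.2, 10.01 and 13.6 CPM in mice 1, 2, 4 and 5. Later samples had 0 to 14.4 CPM (19 samples, median 9.44), with 11 of 19 below the lowest 6-week sample and the 0 in the sample of mouse 5 named above. The level was lower later in 4 of 4 NOR mice, at -0.74 ± 0.27 (SE) on the log2 scale, and without that sample the difference was -0.71 ± 0.21 (SE).

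Slfn8 did not separate from its later values as its close copy did. In nonprogressors it had 22.8 to 72.6 CPM at 6 weeks and 14.0 to 35.5 CPM later, and 19 of 22 later samples were below the lowest 6-week sample. The log2 difference was -0.79 ± 0.14 (SE) in nonprogressors, -0.42 ± 0.15 (SE) in progressors and -0.09 ± 0.16 (SE) in NOR. Slfn5, the other long member, had 162 to 379 CPM at 6 weeks in nonprogressors and 121 to 207 CPM later, a log2 difference of -0.52 ± 0.10 (SE). In progressors it had 146 to 402 CPM at 6 weeks and 73.7 to 323 CPM later, at -0.45 ± 0.12 (SE), with 8 of 10 mice lower later. In NOR the difference was -0.04 ± 0.11 (SE).

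Of the short members, Slfn1 had the largest fitted difference and Slfn2 the smallest. Slfn1 in nonprogressors had 2.32 to 19.5 CPM at 6 weeks and 0.685 to 8.53 CPM later, a log2 difference of -1.73 ± 0.35 (SE), and was lower later in 10 of 10 mice. In progressors the difference was -1.29 ± 0.30 (SE), lower in 9 of 10 mice, and the groups overlapped. In NOR mice Slfn1 had 2.62, 2.07, 0.568 and 1.94 CPM at 6 weeks (mice 1, 2, 4 and 5) and 0.646 to 9.67 CPM later. Slfn2 differed by -0.30 ± 0.11 (SE) in nonprogressors, where it was not called without the mouse as a block and was called with it, and by -0.08 ± 0.08 (SE) in progressors.

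Among the intermediate members, Slfn4 had larger fitted differences than its close copy Slfn3. Slfn4 in nonprogressors had 19.0 to 66.7 CPM at 6 weeks and 4.21 to 61.3 CPM later, with 18 of 22 later samples below the lowest 6-week sample and a log2 difference of -1.26 ± 0.34 (SE). In progressors it had 13.2 to 85.5 CPM at 6 weeks and 4.73 to 57.9 CPM later, with 33 of 48 below and a difference of -1.21 ± 0.26 (SE). Slfn3 stayed within a narrow range, 2.10 to 5.47 CPM at 6 weeks and 1.40 to 3.68 CPM later in nonprogressors. Its log2 difference was -0.50 ± 0.14 (SE) in nonprogressors and -0.21 ± 0.12 (SE) in progressors.

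The fitted size of the time difference varied between batches, most of all for Slfn4. Within batch 1, Slfn4 at 6 weeks had 21.1, 19.0, 25.7 and 24.7 CPM in nonprogressor mice 1 to 4. In batch 2 the 7 nonprogressor mice had 20.3 to 66.7 CPM (median 37.6). Later samples had a median of 14.9 CPM in batch 1 and of 5.70 CPM in batch 2, where all of them were from 14 weeks. The log2 difference was -0.46 ± 0.35 (SE) within batch 1 and -2.58 ± 0.31 (SE) within batch 2.

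The batch difference was fitted after these values had been seen and on the samples that chose the members, so it is a description and no independent support. At 14 against 6 weeks in nonprogressors, the log2 change of Slfn4 was -1.84 ± 0.45 (SE) in batch 2 relative to batch 1, and edgeR called 1 of 7 members, Slfn4, with 3.15% of 21050 genes. That call was lost with the mouse as a block (adjusted p = 0.0835). In progressors edgeR called Slfn5 alone, at -0.78 ± 0.23 (SE), with 4.66% of 21708 genes, and that call was lost with no filter on low counts (adjusted p = 0.0709). Slfn4 in progressors was at -1.48 and was not called. Nonprogressor mice 1 to 4 were in batch 1 and mice 5 to 11 in batch 2, so in that group cohort and sequencing run cannot be told apart.

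Within batch 1 alone, the progressor difference was called for Slfn9 only (-0.97 ± 0.16 SE), 1 of 7 members against 5 in both batches together, where 13.4% of genes were called lower. Slfn5 within batch 1 was at -0.08 ± 0.14 (SE) and Slfn8 at -0.18 ± 0.16 (SE). Slfn2 and Slfn3 turned sign there, to 0.05 and 0.06, with lower later levels in 2 of 5 and 3 of 5 mice. Within batch 2 of the progressors, Slfn1, Slfn4, Slfn5, Slfn8 and Slfn9 were called lower, where 16.1% of genes were. In nonprogressors Slfn1, Slfn5, Slfn8 and Slfn9 were called lower within batch 1 (6.61% of genes) and all 7 members within batch 2 (17.3% of genes). These are the contrasts that chose the members, split by batch, so nothing is read from the counts. The batches also cover unlike times. Later nonprogressor samples of batch 2 were all from 14 weeks, and samples 7 weeks before onset were in batch 2 only.

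**Figure D4:**
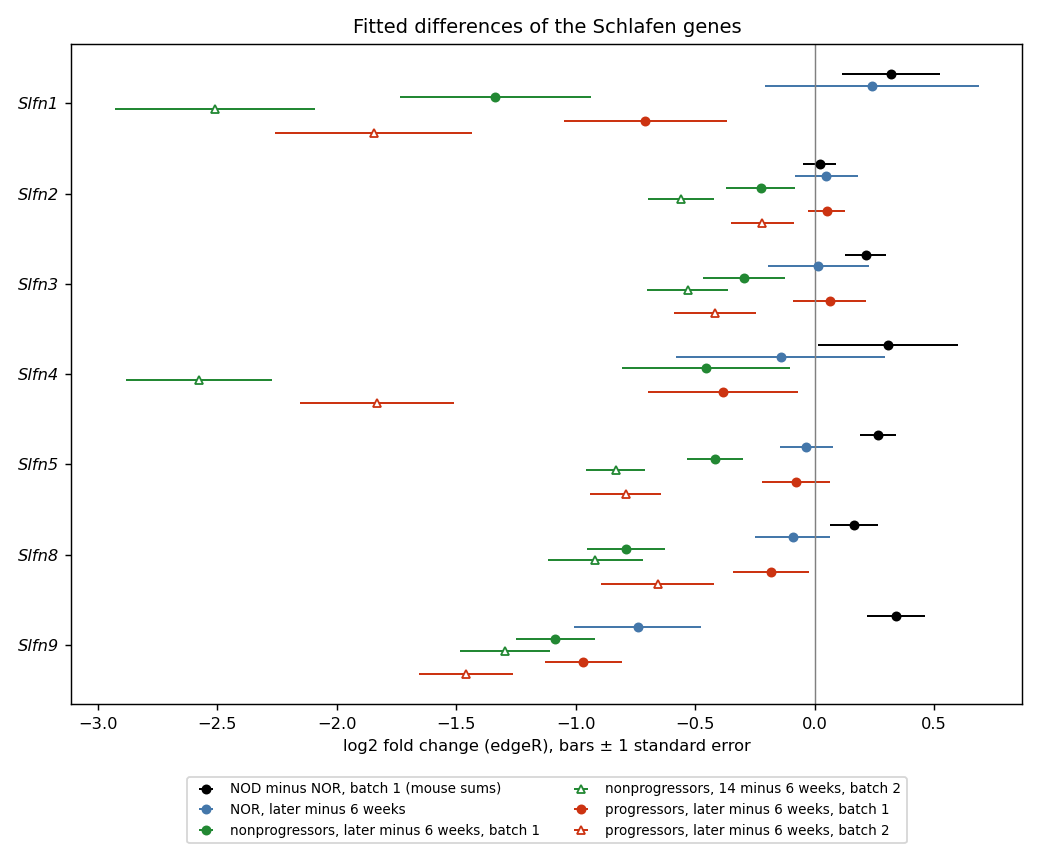
Each point is the edgeR log2 fold change of 1 member in 1 comparison, with bars of 1 standard error, NOD against NOR in black and later against 6 weeks in colour by group. Filled circles are batch 1 and open triangles batch 2. Slfn4 in nonprogressors is at -0.46 within batch 1 and at -2.58 within batch 2, while Slfn9 is below 0 in each time comparison drawn.

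The age difference was set side by side between strains at matched ages within batch 1. This is the difference of 2 contrasts that chose the members, so its values are a description and no independent support. The difference of the changes, nonprogressor minus NOR, was below 0 for all 7 members. It was -1.56 for Slfn1 (95% interval -2.81 to -0.31), -0.68 for Slfn8 (-1.14 to -0.21) and -0.36 for Slfn5 (-0.68 to -0.04), and it lay between -0.26 and -0.32 for the others. By edgeR 0 of 7 members and 0% of 20647 genes were called, 1250 of these genes had an unadjusted p under 0.05, and DESeq2 called 0 members. Slfn4 changed sign, to 0.17, without the 18-week sample of NOR mouse 4.

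Progressors and nonprogressors were compared at 6 weeks, before any mouse was hyperglycemic, to ask whether the family's early level differed by outcome. Slfn1 had a median of 3.85 CPM in the 10 progressors and 6.87 CPM in the 11 nonprogressors, with ranges of 1.84 to 16.8 and 2.32 to 19.5 CPM that overlapped. The log2 difference was -0.25 ± 0.33 (SE) for Slfn1 and lay between -0.09 and -0.18 for the others. By edgeR 0 of 7 members passed (adjusted p 0.92 to 0.96), 0 had an unadjusted p under 0.05, and DESeq2 called 0. Over all 20090 genes 0% were called and 999 had an unadjusted p under 0.05. The 95% interval was -0.42 to 0.24 for Slfn9 and -0.91 to 0.40 for Slfn1. Within batch 1 all 7 members were below 0, with -0.77 ± 0.32 (SE) for Slfn1, -0.50 ± 0.13 (SE) for Slfn4 and -0.46 ± 0.20 (SE) for Slfn8, and 0 were called. Within batch 2 the sign turned for 6 of the members, all but Slfn2, at values under 0.10.

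Among the times after 6 weeks, 1 member was called in NOR mice, Slfn4. The F test over 10, 14, 18 and 22 weeks did not use the 6-week samples in its contrast. It called Slfn4 (edgeR adjusted p = 0.00127, and 0.0343 with the mouse as a block). That is 1 of 7 members, near the 9.69% of 19628 genes called, so nothing about the family is read from the count. Slfn4 had 5.17, 4.78, 6.68, 4.33 and 4.67 CPM at 10 weeks in mice 1 to 5 and 6.37, 3.50, 8.62, 4.79 and 4.39 CPM at 14 weeks. At 18 weeks it had 10.3, 9.00, 123 and 17.2 CPM in mice 1, 3, 4 and 5, and at 22 weeks 13.1, 7.95, 13.1, 8.99 and 13.96 CPM in mice 1 to 5. The 4 samples at 18 weeks all lay above all 10 of the samples at 10 and 14 weeks, while those at 22 weeks overlapped those at 14 weeks. The share of all genes with such an order is not given, so nothing is read from it. The 18-week value of mouse 5 came from the sample with the lowest scaling factor. Without the 18-week sample of mouse 4 Slfn4 was still called (adjusted p = 0.00765), and Slfn2 was then called too (adjusted p = 0.000403, beside 0.163 with it).

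In nonprogressors 0 of 7 members were called over the later ages by edgeR, where 12% of genes were. Slfn4 had an adjusted p of 0.0548, 3 members had an unadjusted p under 0.05, and DESeq2 called Slfn4 alone (adjusted p = 0.0112). Its mean was lowest at 14 weeks (9.34 CPM) and highest at 22 weeks (29.2 CPM), where mouse 4 had 61.3 CPM. In progressors 0 of 7 were called by edgeR or DESeq2 over the times from 7 weeks before onset to onset, with 2 at an unadjusted p under 0.05 and 5.54% of genes called. Slfn2 had the lowest adjusted p, 0.0975. Within batch 2 alone Slfn5 was called (edgeR adjusted p = 0.024), beside 0.297 over both batches. Of the 7 alternative settings this was the only 1 that called Slfn5, and the share of all genes called there is not given. The lowest value of Slfn5, 73.7 CPM, came from a single onset sample.

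The family was set beside 30 interferon-stimulated genes, a list chosen with results of these data known. Between strains 6 of the 30 were called higher in NOD, where 3.87% of all genes were, and 1 lower. Their median log2 difference was 0.44, beside -0.0016 over all genes. Irf7, the transcription factor that amplifies interferon production, rose by 0.78 ± 0.20 (SE, adjusted p = 0.0238) and Rtp4 by 0.73 ± 0.20 (SE, adjusted p = 0.0369). Xaf1 was the one that was lower, at -1.12 ± 0.11 (SE, adjusted p = 7.4e-06). DESeq2 called 20 of the 30 in that contrast.

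From 6 weeks to later ages all 30 were called lower in nonprogressors (median -1.39) and 26 of 30 in progressors (median -0.97). Over all genes 14.2% and 18.5% were called lower, with medians of -0.03 and 0.01. The list was chosen with results of these data known, so its calls are a description and no independent support. Ifit1, which binds viral RNA, fell by 2.32 ± 0.29 (SE, adjusted p = 5.4e-06) in nonprogressors and by 1.89 ± 0.32 (SE, adjusted p = 5.5e-06) in progressors. In nonprogressors Ifi44 fell by 2.09 ± 0.36 (SE, adjusted p = 0.000148), and in progressors Ifit3b fell by 1.83 ± 0.35 (SE, adjusted p = 3.4e-05). In NOR 0 of 30 were called by edgeR or DESeq2, 8 had an unadjusted p under 0.05, and the median was -0.26. The strain difference in the age change called 0 of 30 by either tool, with 15 at an unadjusted p under 0.05 and a median of -0.72. Progressors and nonprogressors at 6 weeks differed in 0 of 30 by either tool and at an unadjusted p under 0.05.

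By batch, 4 of 30 fell more in batch 2 progressors, among them Isg15 by 2.33 ± 0.67 (SE, adjusted p = 0.0379) and Rsad2 by 1.49 ± 0.41 (SE, adjusted p = 0.0306). Over all genes 4.66% were called there, in either direction. In nonprogressors 0 of 30 passed the batch test by edgeR, 2 had an unadjusted p under 0.05 and DESeq2 called 1. The 30 genes summed to a median of 1236 CPM at 6 weeks and 590 CPM later in nonprogressors, 905 and 634 CPM in progressors, and 752 and 589 CPM in NOR.

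Markers of other cell types were set beside these differences. Over all genes 24.1% were called in either direction in nonprogressors, 14.2% lower, and 36.5% in progressors, 18.5% lower. All 5 fibroblast markers were called lower later in both NOD groups, with summed levels of 21540 to 42720 CPM at 6 weeks and 8978 to 37320 CPM later in nonprogressors, and 27480 to 53070 and 4576 to 27950 CPM in progressors. Of the 12 T cell markers, 2 were called higher later in nonprogressors and 10 in progressors, with summed medians of 220 and 272 CPM and of 243 and 300.3 CPM. Of the 11 macrophage markers 1 was called lower in each. Of 8 neutrophil markers tested 1 was called higher in nonprogressors, and 2 of 7 in progressors. Of the 5 monocyte markers 3 were called lower in each group and 1 was called higher in progressors. Their summed median in nonprogressors was 102.9 CPM at 6 weeks and 55.2 CPM later. From 6 to 14 weeks it went from 47.95 to 102.6 CPM in batch 1 and from 109.3 to 42.4 CPM in batch 2. In progressors the monocyte medians were 58.5 and 69.2 CPM. Of the 4 endothelial cell markers 1 was called lower in nonprogressors and 2 in progressors, with summed medians of 261 and 161 CPM and of 238 and 143 CPM. Of these 6 lists, Ly6g, a defining neutrophil marker, was at 0 in the batch 1 nonprogressors at 14 weeks, and no other marker was at 0 in a group. Their part in the Schlafen differences was not tested.

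Across the 120 samples, with the mean of each group and batch taken away, the members differed in how closely they followed the summed interferon list. The Pearson correlation was 0.93 for Slfn8, 0.86 for Slfn1, 0.73 for Slfn5, 0.71 for Slfn2, 0.69 for Slfn4, 0.56 for Slfn9 and 0.52 for Slfn3. With natural killer markers Slfn8 was at 0.59, Slfn2 at 0.52 and Slfn1 at 0.51, and the others ran from 0.04 to 0.30. With macrophage markers Slfn2 was at 0.58 and the others ran from -0.05 to 0.36. With neutrophil markers Slfn4 was at 0.46 and the others ran from 0.16 to 0.45. These are descriptions over samples that share mice, libraries and depth. Among the 21 pairs of members the highest was Slfn1 with Slfn8 (0.82) and the lowest Slfn1 with Slfn3 (0.23). Slfn8 and Slfn5 stood at 0.79.

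The genes most like the members other than Slfn2 by this measure, out of 15912 compared, were in large part known interferon targets. They were Zbp1 (0.90) and Rtp4 (0.90) for Slfn1, Parp14 (0.92) and Dtx3l (0.92) for Slfn8, Sp100 (0.83) and Ifi203 (0.83) for Slfn5, and Irf7 (0.73) and Oasl2 (0.73) for Slfn4. For Slfn3 they were Phf11d (0.83) and Dhx58 (0.79), where the rank correlations were lower at 0.57 and 0.50. For Slfn9 they were Smc2 (0.87), a condensin subunit, and Mcm6 (0.86), a part of the replicative helicase. Without the 2 samples farthest from the median the Slfn9 values were 0.75 and 0.71. Of these, Zbp1, Rtp4, Parp14, Irf7, Oasl2 and Dhx58 are on the interferon list.

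Single biopsies with high Slfn4 differed in their neutrophil and interferon sums. Each is 1 sample, and a cause was not tested. In the 18-week sample of NOR mouse 4 Slfn4 had 123 CPM, the 12 neutrophil markers summed to 398 CPM against 9.09 to 37.5 CPM in the other 18-week NOR samples, and the interferon list to 984 CPM against 449 to 606 CPM. Other lists stood apart in that sample too, among them macrophage (10210 CPM, others 4144 to 5227) and monocyte markers (70.4 CPM, others 36.2 to 54.1). In the 22-week sample of nonprogressor mouse 4 Slfn4 had 61.3 CPM, with a neutrophil sum of 70.0 CPM (others 23.8 to 33.6) and an interferon sum of 619 CPM, inside the range of the others (477 to 683). In the 6-week sample of progressor mouse 10 Slfn4 had 85.5 CPM with a neutrophil sum of 21.8 CPM (others 17.0 to 43.2) and an interferon sum of 2586 CPM (others 748 to 1457). The 6-week sample of nonprogressor mouse 5, with 66.7 CPM of Slfn4, had an interferon sum of 2630 CPM, the highest of its group, and the highest Slfn1, Slfn2 and Slfn3 of all 120 samples at 19.5, 104 and 5.47 CPM. In the sample of progressor mouse 8 at 5 weeks before onset, with 57.9 CPM of Slfn4, both sums were above the others of its group. The neutrophil sum was 57.6 CPM (others 29.0 to 48.5) and the interferon sum 2162 CPM (others 515 to 1143).

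**Figure D5:**
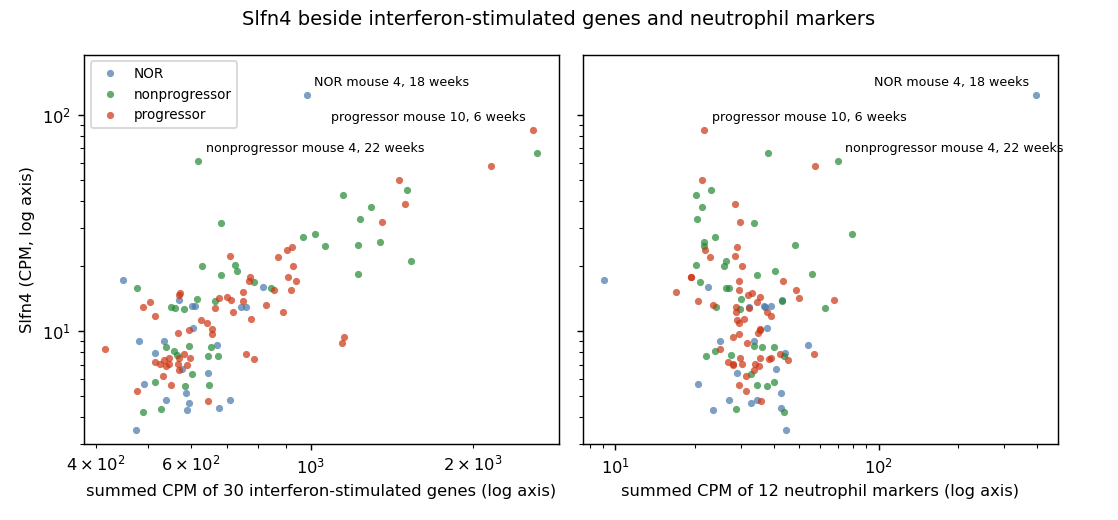
Slfn4 in CPM (vertical, log axis) is plotted for each sample against the summed CPM of 30 interferon-stimulated genes (left) and of 12 neutrophil markers (right), both on log axes, with points coloured by group. The named NOR sample at 123 CPM of Slfn4 has the highest neutrophil sum, 398 CPM, while progressor mouse 10 at 6 weeks has 85.5 CPM of Slfn4 at a neutrophil sum of 21.8 CPM.

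Genes beside the family were compared between the strains because NOD and NOR mice differ at parts of the genome and reads were counted against the reference strain. Within 500 kb of the stretch, 1 of 31 genes tested was called, Fndc8, which was lower in NOD by a log2 difference of -0.69 ± 0.19 (SE, adjusted p = 0.0334), beside 8.98% of all genes. Within 1000 kb 3 of 45 were called, with Tada2a at 0.19 and the chemokine Ccl7 at 0.42 added. At 6 weeks alone 0 of 25 were called. Of the family genes outside the 7 members, the pseudogene Slfn10-ps had a median of 5.37 CPM per kb, close to Slfn8, while Slfn14 held 98 counts in all and Slfnl1, on chromosome 4, held 520.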

How the data were processed

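RNA was extracted from frozen scaffolds, ribosomal RNA was depleted and libraries were sequenced in 2 batches on different instruments. The deposited values are expected counts per gene that the authors made with cutadapt, STAR and RSEM on GRCm38 (FastQC and MultiQC for quality), given as whole numbers; versions are not given in the sources used here. Reads were mapped to the reference strain, so bases that differ in NOD and NOR can lower counts. Tables of both batches were joined on 55487 shared genes.

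Levels are CPM with TMM factors over all samples, divided by exon length (GENCODE M21, 99.5% of genes matched) where genes are compared. Comparisons used the edgeR 4.0.16 quasi-likelihood test with filterByExpr, TMM and Benjamini-Hochberg adjustment over all genes tested, called at an adjusted p under 0.05. The strain comparison summed the samples of each batch 1 mouse. Time was a factor, with batch as a term where both batches entered. DESeq2 1.42.0 was an alternative, and the test was tried on simulated data. Samples were grouped by their labels. Mouse numbers mark the same animal, and an alternative fit took the animal as a block. Over 2000 genes, deviations from the group means correlated on average at -0.0015 (NOR), 0.011 (nonprogressors) and -0.014 (progressors) between samples of a mouse. Correlations used log2 (CPM + 0.5) with the mean of each group and batch subtracted, in genes with a mean over 1 CPM. Promoter sequences are from RefSeq (GRCm38.p6) and all 7 members matched.

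Members and lists were chosen with earlier results of these data known. Named outside the family were the 2 genes of largest change called in each direction on the interferon list, the called neighbours, and the 2 best correlated genes per member (that result is not reported here for Slfn2). Batch tests and fits without single samples were added after seeing the data.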

Additional observations from a re-analysis of the deposited data

Results flagged for a closer look

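Of 105 groups of 4 to 10 samples tested with Dixon's ratio, 17 held a sample far from the rest. The limit used gives about 1 in 20 groups for normally distributed values of 1 population. Here the values were CPM without a log and the larger groups pooled both batches, so that rate need not hold. No excess is read from the 17 flags. The members share samples, so these flags are not independent.

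The sample of progressor mouse 8 taken 5 weeks before onset stood far above the other 9 for 6 members, all but Slfn2. It had 17.87 CPM of Slfn1 (others 0.912 to 4.06), 4.47 of Slfn3, 57.9 of Slfn4 (others 5.62 to 15.5), 322.5 of Slfn5, 77.6 of Slfn8 and 25.5 of Slfn9. Its interferon list summed to 2162 CPM (others 514.9 to 1143) and its natural killer markers to 32.1 CPM (others 2.11 to 16.5). The 6-week sample of progressor mouse 10 had 5.41 CPM of Slfn3, 85.5 of Slfn4, 67.7 of Slfn8 and 49.99 of Slfn9, each above the other 9.

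The 18-week sample of NOR mouse 4 had 123.4 CPM of Slfn4 (others 9.00 to 17.2) and a neutrophil sum of 397.7 CPM. Slfn4 was also high in progressor mouse 6 at 7 weeks before onset, 38.7 CPM (others 7.44 to 12.3), and in progressor mouse 2 at onset, 22.1 CPM (others 5.30 to 13.8). Nonprogressor mouse 3 had 3.24 CPM of Slfn1 at 10 weeks (others 1.47 to 1.64) and 35.5 CPM of Slfn8 at 18 weeks (others 20.5 to 21.6). That 18-week sample was shallow, with 3 counts equal to 0.58 CPM (others 0.101 to 0.128). Its interferon list summed to 1224 CPM (others 540 to 784) and its skeletal muscle markers to 5412 CPM (others 42.3 to 358). Low values were 38.8 CPM of Slfn2 in progressor mouse 7 at onset (others 51.2 to 64.4) and 1.74 CPM of Slfn3 in progressor mouse 10 at 1 week before onset (others 2.37 to 3.08).

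The time change was called different between batches for Slfn4 in nonprogressors (-1.84 on the log2 scale, edgeR adjusted p = 0.0336) and for Slfn5 in progressors (-0.78, edgeR adjusted p = 0.0422). This comparison was added after seeing the data, on samples that chose the members, and is no independent support. The call of Slfn4 was lost with the mouse as a block (adjusted p = 0.0835) and that of Slfn5 with no filter on low counts (adjusted p = 0.0709).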

How the results depend on the processing

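Of the values recomputed for single members, 744 moved by less than 1 SD between replicates in the contrasts that chose the members, or kept their direction and call in the others. Of the rest, 9 moved, 8 reversed, 7 became stronger and 2 weaker. Within the spread of 1 SD Slfn2 turned sign between strains (lowest -0.018) and Slfn1 to Slfn5 did in NOR age. In progressors Slfn2 and Slfn3 turned to 0.050 and 0.062 within batch 1. Between strains Slfn5 was called in 12 of 23 alternatives, Slfn4 in 2 and Slfn9 in 1. Of the counts of members or neighbours called, 88 stayed within 1.5 times and 24 moved. In the strain comparison the count of 1 became 2 with DESeq2 and without the 18-week sample of NOR mouse 4, and 0 with no filter on low counts, at 6 weeks only and for progressors against NOR. Leaving out each mouse gave 0 to 1. In progressors 5 became 1 within batch 1. The batch test in nonprogressors went from 1 to 0 with the mouse as a replicate block, where Slfn4 was at -1.76. The batch test in progressors went from 1 to 2 with DESeq2 and without the sample of mouse 8 at 5 weeks before onset, and to 0 with no filter. The later ages gave 1 to 2 in NOR when each mouse was left out and 2 without the 18-week sample of mouse 4. In nonprogressors they gave 1 with DESeq2 and 0 to 1 when each mouse was left out, and later progressor times gave 1 within batch 2. The block changed no other count of calls by over 1.5 times, and gave 7 against 6 in nonprogressor age. Neighbours called went from 1 to 3 in the wider window and to 0 at 6 weeks. The age by strain value of Slfn4 ran from -0.55 to 0.35 when each mouse was left out, turning to 0.35 without NOR mouse 4, and was 0.17 without the 18-week sample of that mouse. Within batch 2 the progressor difference at 6 weeks turned to 0.094 for Slfn1, 0.019 for Slfn3, 0.087 for Slfn4, 0.030 for Slfn5, 0.017 for Slfn8 and 0.020 for Slfn9. The cause was not tested. Depth limits Slfn3 and Slfn1 most, which have 10154 and 13582 counts in all.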

Other observations

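The 6 nonprogressor samples with a day label, all of batch 1 and 2 for each day, entered no comparison. At day 31 Slfn1 had 7.66 and 7.98 CPM and Slfn4 18.4 and 28.3 CPM. At day 38 Slfn1 had 2.57 and 3.68 CPM and Slfn4 7.67 and 13.8 CPM. At day 108 Slfn1 had 2.89 and 3.38 CPM and Slfn4 5.63 and 8.44 CPM. For both genes the day 31 pair lay above the other 4 samples. Slfn5 had 229 and 206 CPM at day 31 and 146 to 168 CPM at the other days, and Slfn8 had 39.8 and 37.0 CPM at day 31 and 25.7 to 31.5 CPM at the others. Slfn9 had 12.4 and 12.7 CPM at day 31 and 8.93 to 10.2 CPM at the others. The 30 interferon-stimulated genes summed to 1017 to 1225 CPM at day 31, 664 to 675 CPM at day 38 and 648 to 655 CPM at day 108. With 2 samples a day no test was made. The share of all genes with the day 31 pair above the other samples is not given. Nothing about the family is read from this order.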
